A study of Zea mays with 9 samples.

Results

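In the growing tip of the maize primary root, 300 transcripts were chosen by their own levels because they climbed in 2 steps as the water supply fell. Each had a mean of at least 0.5 CPM (the reads of a transcript, scaled to a common library size) in well-watered roots. Each also had a mean at least 1.5 times higher in mildly stressed than in well-watered roots and at least 1.5 times higher in severely than in mildly stressed roots. Every mild library had to lie above every well-watered one, and every severe library above every mild one. These steps were met by 501 of the 46599 transcripts listed, and the 300 with the highest severe mean were kept. They came from 272 genes. Because the CPM values of all 3 treatments selected the members, the levels and steps below describe them and carry no test.

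Seedlings of the inbred line B73 were placed in vermiculite at a water potential of -0.02 MPa (well-watered, libraries 1, 2 and 3), -0.3 MPa (mild water deficit, libraries 1, 3 and 4) or -1.6 MPa (severe water deficit, libraries 1, 2 and 5) for 26 h. Each library was made from the apical 1 cm of 5 pooled primary roots, and no other genotype or agent was used. A segment of fixed length does not hold the same mix of zones in every treatment, since the zone of cell elongation shortens under water deficit. In such bulk samples, fewer cells of a type and less RNA per cell cannot be told apart. All values come from 3 libraries per treatment, and p-values measure only the spread between these libraries.

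Roots sense drying soil as a fall in water potential. They answer with abscisic acid, a hormone that binds receptors of the PYL family, which then block PP2C phosphatases and release SnRK2 kinases. In the root tip the response is also known to include osmotic adjustment by sugars, amino acids and ions, protective proteins such as dehydrins, and changes in wall loosening. A gene name was found for 47 of the 272 genes, with 58 of the 300 transcripts, and the others are given by their identifiers only.

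The libraries held between 33385679 and 52047078 listed reads, so that 3 reads correspond to 0.0576 to 0.0899 CPM. The member with the fewest reads in any library had 8. Correlations of log2 CPM between libraries of a treatment were 0.976 to 0.978 in well-watered, 0.976 to 0.977 in mild and 0.966 to 0.973 in severe roots. Severe library 2 stood apart from the other severe libraries. Transcripts of rab17 (GRMZM2G079440), a dehydrin gene outside the 300, summed to 217 CPM in severe library 2, against 5.59 and 11.9 CPM in severe libraries 1 and 5, and between 0.247 and 0.974 CPM in the mild and well-watered libraries. Without severe library 2, 292 of the 300 members still met the steps.

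Together the members held 0.303 to 0.319% of the listed reads in well-watered libraries, 0.583 to 0.623% in mild libraries and 1.68 to 2.63% in severe libraries. The median level of a member was 3.88 CPM in well-watered, 8.22 CPM in mild and 28.3 CPM in severe roots. The total ratio, severe over well-watered, had a median of 6.99 and ran between 2.31 and 90.3, with 96 members at 10 or more. Across all listed transcripts the median of that ratio was 1.08.

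**Figure D1:**
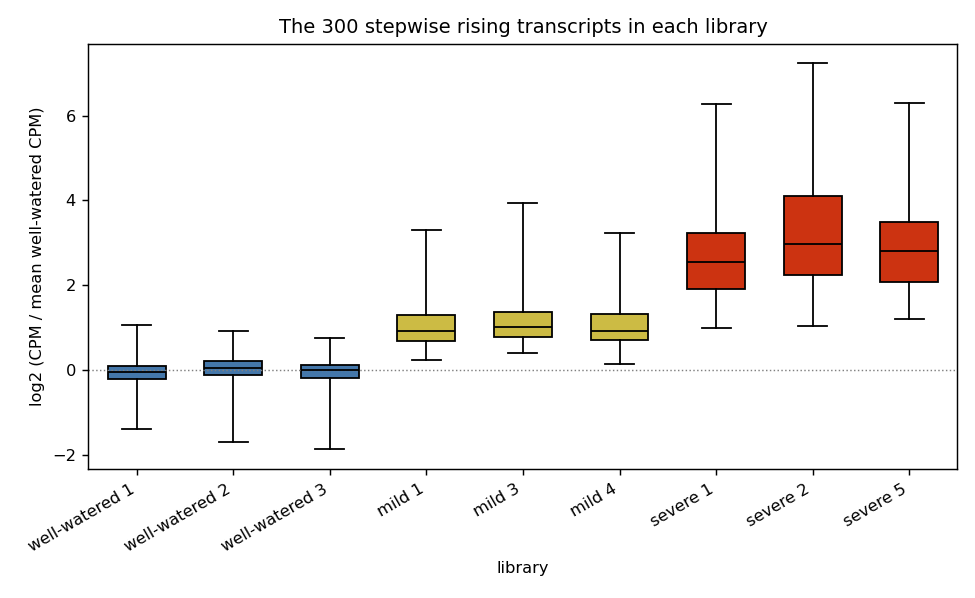
Level of the 300 members in each of the 9 libraries, as log2 of the CPM over the mean well-watered CPM of the same transcript. The box spans the quartiles, the line is the median and the whiskers reach the lowest and highest member. Medians lie between 0.92 and 1.02 in the mild libraries and between 2.55 and 2.98 in the severe libraries, with severe library 2 the highest.

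The step into severe deficit was usually the larger of the 2. The severe step (severe over mild mean) had a median ratio of 3.41, with quartiles of 2.22 and 5.51 and a range of 1.51 to 28.8. The mild step (mild over well-watered mean) had a median ratio of 1.93, with quartiles of 1.67 and 2.49 and a range of 1.5 to 11.4. The mild step was the larger in 46 members (15.3%). The 2 steps do not span equal differences in water potential. At the median, 36.1% of a member's whole rise on the log2 scale had been reached at mild deficit, between 16.6% for BURP3 and 78.9% for GRMZM5G836174_T02. Among the 201 transcripts that met the steps but ranked lower in severe roots, the median severe and mild steps were 2.14 and 1.77. The mild step was the larger in 66 of them (32.8%). Keeping the highest severe means favours large severe steps, so the share among the members depends partly on that cut. When the libraries were scaled by TMM factors, the members' median severe and mild steps were 3.21 and 1.90 and the mild step was the larger in 55. A large mild step and a large severe step were not confined to separate transcripts: of the 44 members with a mild step of at least 3, 23 also had a severe step of at least 5.

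**Figure D2:**
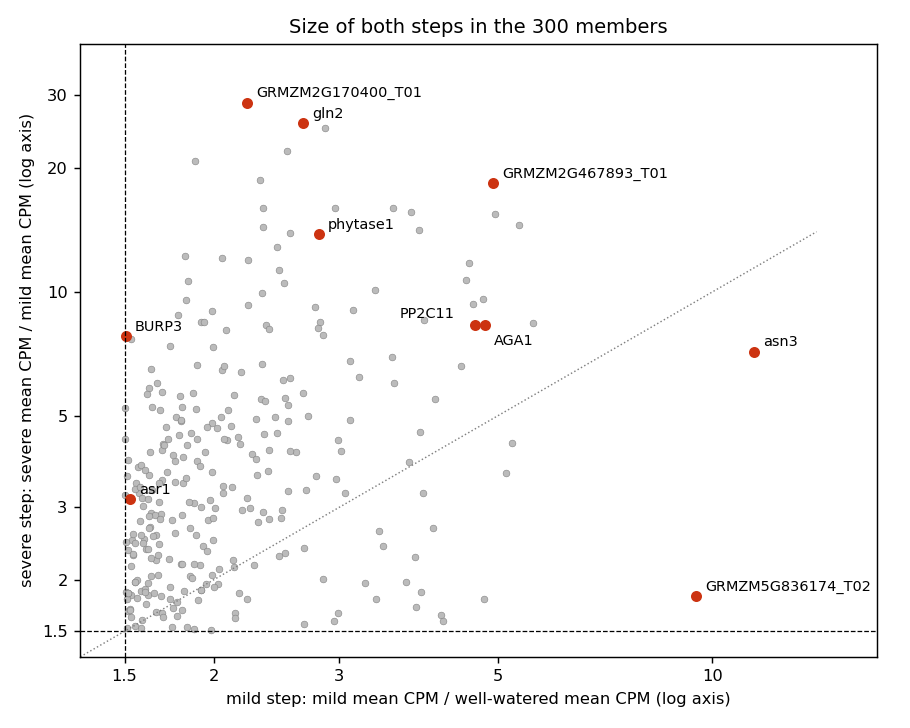
The mild step (horizontal, mild over well-watered mean CPM) against the severe step (vertical, severe over mild mean CPM) of the 300 members, both on log axes. Dashed lines mark the limit of 1.5 that chose them, and on the dotted line both steps are equal. Most points lie above it, with asn3 at 11.4 and 7.16, GRMZM5G836174_T02 at 9.48 and 1.82, and GRMZM2G170400_T01 at 2.23 and 28.8.

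In the fit across all listed transcripts (edgeR's quasi-likelihood test, FDR below 0.05), 300 of the 300 members were called raised in severe against well-watered roots, beside 16.4% of all transcripts. In severe against mild roots 295 were called raised, beside 13.8% of all, and in mild against well-watered roots 158, beside 1.38% of all. Both steps were called in 158 members, beside 0.678% of all transcripts, and the severe step only in 137. No overlap of replicates at either rising step was seen in 4.91% of all transcripts. These contrasts selected the members, so nothing is read from the counts. Counts and medians given below for gene lists and families include any members they hold. Members raise these values through the rule itself, so nothing is read from them either. The mild count was 95 without well-watered library 3 and 96 without mild library 3. Neither step was called for 5 members, among them the cystatin gene cpi2 and the glutathione transferase gene GST25.

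Among the 12 members with the highest severe CPM were genes for storage compounds, sugar and nitrogen metabolism, and proteins long known from dry or ripening tissue. BURP3 (GRMZM2G106980_T02, 4 exons on chromosome 1, 203687006 to 203693519 of the B73 RefGen_v3 assembly, the build of every position given here) belongs to a plant family defined by the BURP domain and named after proteins that include one induced by desiccation. It had 109, 118 and 67.1 CPM in well-watered roots, 143, 141 and 160.1 CPM in mild roots and 581, 2014 and 873 CPM in severe roots. Its mild step of 1.51 barely passed the limit, its severe step was 7.81, and severe library 2 was more than 2 times as high as either other severe library. Only 4.90% of the reads given to it were counted as unique to this transcript, and its gene has 2 listed transcripts.

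The transcript of asr1 (GRMZM2G136910_T01, chromosome 10, 8852553 to 8853933) encodes an abscisic stress ripening protein, a small hydrophilic protein of drying and ripening tissue. It had 227, 216 and 179 CPM in well-watered roots, 292, 331 and 325 CPM in mild roots and 913, 1144 and 919 CPM in severe roots. Per length it was the most abundant of the 300, with a mean of 756 RPKM (reads per kilobase of transcript, scaled to library size) in severe roots, against 242 RPKM in mild and 159 RPKM in well-watered roots. Its 3 severe libraries lay close together, unlike those of BURP3.

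Phosphate release from phytate, the seed's phosphate store, was represented by both phytase genes near the top of the ranking. The first transcript of phytase2 (GRMZM2G043336_T01, chromosome 3, 132181945 to 132183468) had 31.8, 40.2 and 15.0 CPM in well-watered roots, 67.1, 72.3 and 78.8 CPM in mild roots and 468, 1169 and 656 CPM in severe roots. The transcript of phytase1 (GRMZM2G140101_T01, chromosome 3, 131730020 to 131731520) had 9.19, 14.6 and 6.15 CPM in well-watered roots, 25.3, 27.8 and 31.0 CPM in mild roots and 233, 590.4 and 338 CPM in severe roots. Both followed the same course, with severe steps of 10.5 for phytase2 and 13.8 for phytase1, and with severe library 2 the highest for each. The reads of phytase1, which has 1 listed transcript, were all counted as unique to it. Of those given to this phytase2 transcript 2.14% were, and the phytase2 gene has another member transcript. This share largely follows the number of transcripts annotated for a gene. It does not show whether reads of the 2 phytase genes were kept apart.

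AGA1, a gene for an alkaline alpha-galactosidase that splits galactose from sugars of the raffinose family, had its leading transcript (GRMZM2G340656_T04, chromosome 7, 19063721 to 19067275) at 10.3, 13.5 and 17.3 CPM in well-watered roots, 67.4, 71.4 and 58.5 CPM in mild roots and 405, 793 and 441 CPM in severe roots. The transcript of asn3 (GRMZM2G053669_T01, 10 exons, chromosome 1, 45118780 to 45122813), an asparagine synthetase, which moves an amide group from glutamine onto aspartate, had 6.95, 4.08 and 3.22 CPM in well-watered roots, 46.6, 72.5 and 43.9 CPM in mild roots and 254, 541 and 371 CPM in severe roots. Its mild step of 11.4 was the largest of the 300, and it was the only transcript among both the 12 with the highest severe CPM and the 10 with the largest total ratio (81.9). The chitinase gene chiA (GRMZM2G051943_T01, chromosome 2, 34162588 to 34163936), whose product cuts the chitin of fungal walls, had 158, 140.0 and 155 CPM in well-watered roots, 296, 303 and 267 CPM in mild roots and 546, 703 and 629 CPM in severe roots. Its 2 steps, 1.91 and 2.17, were nearly even.

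The other 5 of the 12 had no gene name. GRMZM2G020940_T01 (chromosome 1, 53618695 to 53620586) had 232, 217 and 233 CPM in well-watered roots, 389, 383 and 359.5 CPM in mild roots and 883, 1079.7 and 947 CPM in severe roots. GRMZM2G066049_T01 (1 exon, chromosome 10, 1086965 to 1088582) had 82.9, 76.1 and 65.0 CPM in well-watered roots, 244, 233.8 and 188 CPM in mild roots and 478, 1091 and 765 CPM in severe roots. The severe libraries were close together for the first of these and spread over a more than 2-fold range for the second. GRMZM2G147014_T01 (chromosome 5, 193902115 to 193903647) had 16.2, 19.7 and 19.8 CPM in well-watered roots, 62.2, 86.7 and 99.0 CPM in mild roots and 512, 614 and 507 CPM in severe roots, a total ratio of 29.3 with little spread. GRMZM2G135536_T01 (1 exon, chromosome 10, 893876 to 895613) had 114, 102 and 102 CPM in well-watered roots, 172, 169 and 149 CPM in mild roots and 317, 483 and 425 CPM in severe roots. GRMZM2G472248_T01 (1 exon, chromosome 3, 36311866 to 36312838) had 72.2, 76.1 and 65.9 CPM in well-watered roots, 128, 128 and 130.1 CPM in mild roots and 289, 446 and 373 CPM in severe roots. The mild libraries of this last transcript differed less than those of any other of the 12.

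**Figure D3:**
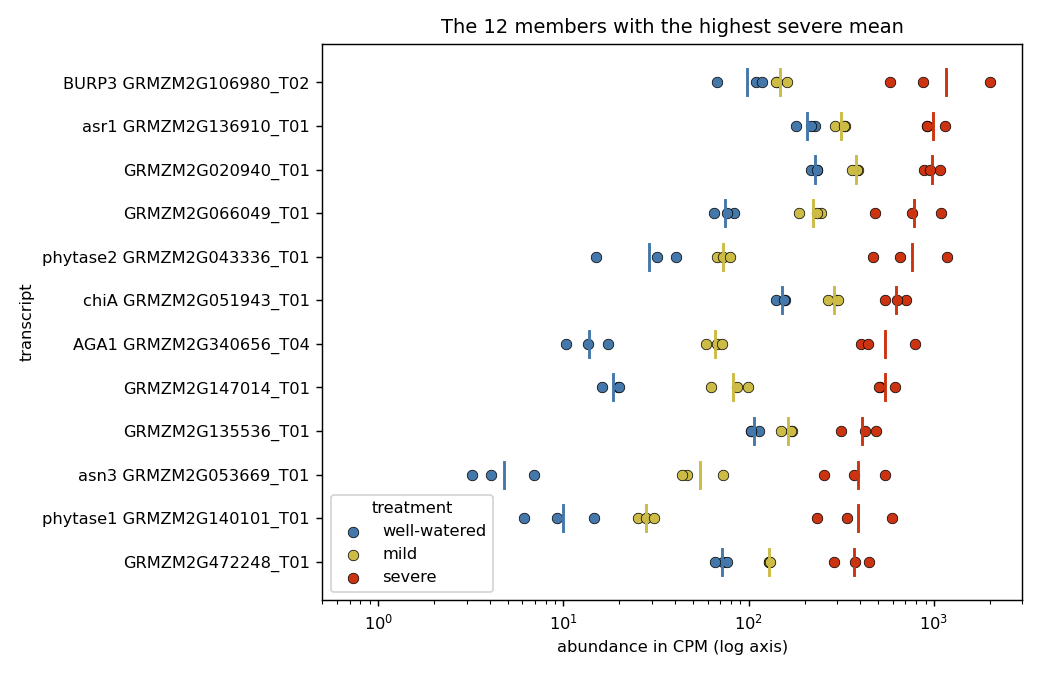
CPM on a log axis of the 12 members with the highest severe mean, one row per transcript. Each point is 1 library, the bar is the mean of the 3 libraries of a treatment, and the colours run from well-watered through mild to severe. BURP3 spreads widest in severe roots (581 to 2014 CPM), and asn3 starts lowest in well-watered roots (3.22 to 6.95 CPM).

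The 10 members with the largest total ratio had well-watered means between 0.604 CPM for GRMZM2G467893_T01 and 4.75 CPM for asn3. GRMZM2G467893_T01 (chromosome 1, 260804238 to 260807046), the highest at 90.3, had 0.321, 0.876 and 0.615 CPM in well-watered roots, 2.47, 3.35 and 3.09 CPM in mild roots and 29.0, 91.0 and 43.7 CPM in severe roots. After asn3 came GRMZM2G376743_T01 (chromosome 5, 23783297 to 23785415, ratio 78.2) with 0.934, 0.968 and 0.828 CPM in well-watered roots, 4.42, 5.00 and 5.21 CPM in mild roots and 70.0, 82.8 and 60.6 CPM in severe roots. The severe libraries of GRMZM2G467893_T01 were about 3-fold apart, whereas those of GRMZM2G376743_T01 agreed closely. GRMZM2G106344_T01 (chromosome 8, 171262649 to 171265559, ratio 76.5) had 1.02, 1.11 and 0.780 CPM in well-watered roots, 4.75, 3.74 and 5.92 CPM in mild roots and 62.3, 95.3 and 64.8 CPM in severe roots. GRMZM2G061088_T01 (chromosome 8, 37813026 to 37816876, ratio 71.5) had 0.350, 1.20 and 0.544 CPM in well-watered roots, 1.46, 2.49 and 2.05 CPM in mild roots and 21.9, 90.1 and 37.6 CPM in severe roots. Its lowest mild value was only slightly above its highest well-watered one.

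The third transcript of gln2 (GRMZM2G024104_T03, 12 exons, chromosome 1, 267960169 to 267963183, ratio 68.5), a glutamine synthetase of the cytosol, had 0.875, 1.38 and 1.3 CPM in well-watered roots, 3.3, 3.53 and 2.58 CPM in mild roots and 56.7, 105 and 78.7 CPM in severe roots. GRMZM2G170400_T01 (12 exons, chromosome 6, 162503096 to 162507889, ratio 64.2) had 2.83, 2.74 and 2.41 CPM in well-watered roots, 4.87, 5.06 and 7.87 CPM in mild roots and 82.8, 329 and 101 CPM in severe roots. Its severe step of 28.8 was the largest of the 300 and rested in good part on severe library 2, and 4.33% of its reads were unique. GRMZM2G020423_T01 (chromosome 3, 132046158 to 132047504, ratio 59.3) had 1.43, 1.89 and 1.61 CPM in well-watered roots, 7.32, 6.56 and 4.77 CPM in mild roots and 44.4, 172 and 75.6 CPM in severe roots. GRMZM2G123896_T01 (chromosome 1, 222643514 to 222645307, ratio 57.1) had 1.34, 1.06 and 1.77 CPM in well-watered roots, 4.77, 6.56 and 3.58 CPM in mild roots and 42.9, 118 and 77.9 CPM in severe roots. In both of these the severe libraries kept the order 1, 5, 2. GRMZM5G801627_T02 (1 exon, chromosome 6, 132847404 to 132849278, ratio 55.9) had 0.817, 0.623 and 0.899 CPM in well-watered roots, 2.15, 1.86 and 1.92 CPM in mild roots and 30.5, 66.2 and 33.9 CPM in severe roots. GRMZM5G836174_T02 (1 exon, chromosome 8, 154976915 to 154978364) had a larger mild than severe step, unlike most members, with 1.90, 1.82 and 3.74 CPM in well-watered roots, 23.3, 24.0 and 23.4 CPM in mild roots and 52.9, 41.0 and 35.1 CPM in severe roots. Its mild step was 9.48, second to that of asn3, and its severe step was 1.82.

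Nitrogen metabolism held the steepest of the named genes. Besides asn3, the members included 3 transcripts of gln2 and 2 of GAD (GRMZM2G017110), the glutamate decarboxylase that makes gamma-aminobutyric acid. Summed over its transcripts, GAD had 9.25 ± 2.60 CPM in well-watered, 24.0 ± 2.3 CPM in mild and 236 ± 78.6 CPM in severe roots (SD, n = 3 each). The gene sum of gln2 was 3.51 ± 0.234 CPM in well-watered, 8.78 ± 0.807 CPM in mild and 198 ± 62.9 CPM in severe roots (SD, n = 3 each). Of the 60 listed transcripts of asparagine, glutamine and glutamate metabolism, 28 were raised and 4 lowered in severe against mild roots (backgrounds 13.8% and 10.4%), and 5 were raised and 2 lowered in mild against well-watered roots (backgrounds 1.38% and 1.06%). The median log2 change was 0.48 for severe against mild and 0.05 for mild against well-watered.

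Related genes of the same enzymes followed several courses. These relatives were picked after their values had been seen, and their reads were summed per gene and fitted over 26994 genes. A second asparagine synthetase gene, asn1 (GRMZM2G074589), averaged 74.8 ± 6.15 CPM in severe, against 85.7 ± 4.90 CPM in mild and 99.7 ± 2.41 CPM in well-watered roots (SD, n = 3 each). It was lowered in severe against mild roots (log2 fold change -0.30, SE 0.08, FDR = 0.0067), while its mild step missed the threshold (-0.24, SE 0.08, FDR = 0.076). The third gene, asn2 (GRMZM2G093175), rose into severe (log2 fold change 2.08, FDR = 3.3e-05) and into mild deficit (3.22, FDR = 0.00012) but started at 0.232 CPM in well-watered roots, below the minimum. For comparison, asn3 averaged 389 ± 144 CPM in severe, 54.3 ± 15.8 CPM in mild and 4.75 ± 1.95 CPM in well-watered roots (SD, n = 3 each). Of the 7 glutamine synthetase genes, gln2 included, 3 were raised and 1 lowered in severe against mild roots (backgrounds 25.8% and 23.3% of genes), and 2 were raised in mild against well-watered roots (background 4.45%). Among them, gln4 (GRMZM5G872068) had 879 ± 87.7 CPM in severe, 859 ± 37.9 CPM in mild and 823 ± 32.6 CPM in well-watered roots (SD, n = 3 each), and neither the severe step (FDR = 0.49) nor the mild step (FDR = 0.84) passed the test. The gene gln6 (GRMZM2G050514) rose in mild roots (log2 fold change 0.50, SE 0.12, FDR = 0.023) and was lowered in severe against mild roots (-0.66, SE 0.12, FDR = 0.00081).

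In sugar release, AGA1 and its relatives moved in opposite directions. The gene sum of AGA1 was 48.5 ± 8.23 CPM in well-watered, 151 ± 28.5 CPM in mild and 1278 ± 427 CPM in severe roots (SD, n = 3 each). The other 3 AGA genes all fell at both steps. AGA2 (GRMZM2G127147) averaged 40.8 ± 4.99 CPM in severe, 61.1 ± 7.67 CPM in mild and 90.1 ± 6.53 CPM in well-watered roots (SD, n = 3 each), with log2 fold changes of -0.68 (FDR = 0.00057) into severe and -0.58 (FDR = 0.0082) into mild deficit. AGA3a (GRMZM2G050177) fell by 0.79 (FDR = 8.6e-05) and 0.39 (FDR = 0.034) on the log2 scale at the same steps, and AGA3b (GRMZM2G037265) by 0.64 (FDR = 7e-05) and 0.39 (FDR = 0.0092). The other members of the list of galactosides, sucrose and starch were AGP2 (GRMZM2G027955_T02), a subunit of the enzyme that makes the precursor of starch, with means of 7.01 CPM in well-watered, 11.5 CPM in mild and 38.1 CPM in severe roots, and the sucrose synthase gene sus2 (GRMZM2G318780_T02), with 1.42, 3.32 and 33.0 CPM in the same order. For sus2 the severe libraries spread between 16.0 and 60.9 CPM. In the whole list of 69 transcripts, 20 were raised and 7 lowered in severe against mild roots (backgrounds 13.8% and 10.4%), and 3 each way in mild against well-watered roots (backgrounds 1.38% and 1.06%). Median log2 changes were 0.22 (severe against mild) and 0.17 (mild against well-watered).

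**Figure D4:**
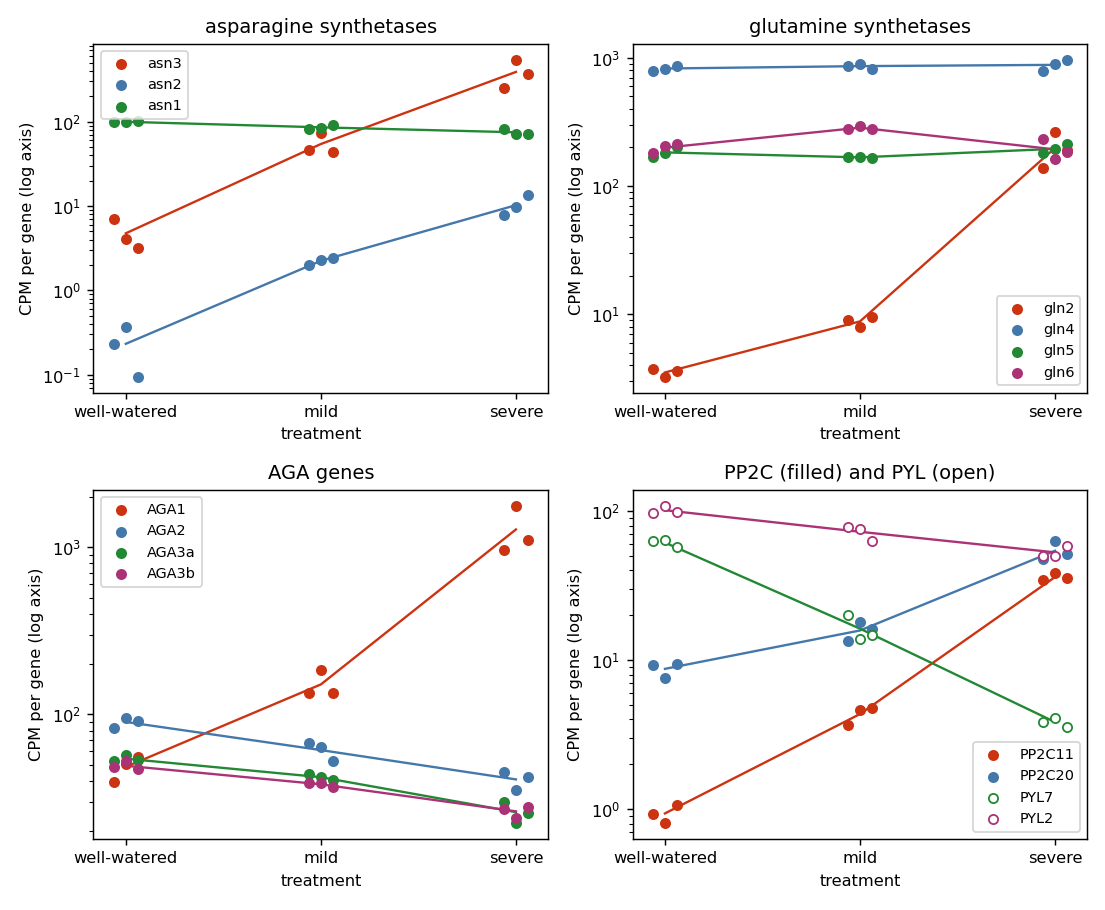
CPM per gene on log axes in well-watered, mild and severe roots, for asparagine synthetases, glutamine synthetases, AGA genes and the PP2C (filled) and PYL (open) genes of abscisic acid signalling. Each point is 1 library and lines join the means. In each panel genes with member transcripts (asn3, gln2, AGA1, PP2C11, PP2C20) climb, while asn1, AGA2, PYL2 and PYL7 have their lowest means in severe roots and gln4 stays between 787 and 962 CPM.

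Phytate and phosphate genes gave 5 member transcripts of 4 genes. All 3 listed phytase genes were members: phytase1, both transcripts of phytase2, and PAPhy (GRMZM2G134054_T01), a purple acid phosphatase with phytase activity. PAPhy had means of 33.6 ± 7.88 CPM in well-watered, 62.2 ± 3.55 CPM in mild and 127 ± 3.66 CPM in severe roots (SD, n = 3 each), and its severe libraries, unlike those of phytase1 and phytase2, differed little (123, 129 and 129 CPM). The phosphate transporter gene pht2 (GRMZM2G154090_T01) had means of 6.86 CPM in well-watered, 11 CPM in mild and 20.8 CPM in severe roots. The list's 21 transcripts include the 5 members, which the rule chose for rising at both steps. Of the 21, 7 were raised and 2 lowered in severe against mild roots (backgrounds 13.8% and 10.4%). In mild against well-watered roots 1 was raised (background 1.38%). The list's median log2 change was 0.50 into severe and 0.27 into mild deficit.

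The abscisic acid pathway entered the set through its synthesis and through its phosphatases, not through its receptors. The transcript of vp14 (GRMZM2G014392_T01), whose product cleaves a carotenoid in the key step of abscisic acid synthesis, had means of 2.3 CPM in well-watered, 4.04 CPM in mild and 18.2 CPM in severe roots. PP2C11 (GRMZM2G308615_T01), a member of the phosphatase family that holds negative regulators of the pathway, had 0.934, 0.807 and 1.06 CPM in well-watered roots, 3.68, 4.61 and 4.75 CPM in mild roots and 34.3, 38.7 and 35.5 CPM in severe roots. Its total ratio of 38.7 came with close agreement of the replicates. PP2C20 (GRMZM2G166297_T01) had means of 8.74 CPM in well-watered, 15.8 CPM in mild and 54.3 CPM in severe roots, and PP2C4 (GRMZM2G177386_T02) 5.64, 8.51 and 30.3 CPM in the same order. The fifth transcript of the list was asr1, counted here through its alias aba1.

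Over the whole list of 91 abscisic acid transcripts, 32 were raised and 6 lowered in severe against mild roots (backgrounds 13.8% and 10.4%), and 7 were raised and 5 lowered in mild against well-watered roots (backgrounds 1.38% and 1.06%). At the median, transcripts of the list changed by 0.36 (severe against mild) and 0.07 (mild against well-watered) on the log2 scale. Summed per gene, and grouped after the values had been seen, 17 of 22 PP2C genes were raised and 2 lowered in severe against mild roots (backgrounds 25.8% and 23.3% of genes), and 5 were raised and 1 lowered in mild against well-watered roots (backgrounds 4.45% and 4.11% of genes). Of the 9 PYL receptor genes, 2 were raised and 5 lowered in severe against mild roots (backgrounds 25.8% and 23.3% of genes), and 6 were lowered in mild against well-watered roots (background 4.11% of genes). PYL7 (GRMZM2G144224) had the opposite course to PP2C11, with 3.84 ± 0.281 CPM in severe, 16.3 ± 3.47 CPM in mild and 61.6 ± 3.33 CPM in well-watered roots (SD, n = 3 each). Its log2 fold change was -2.19 (SE 0.14, FDR = 8.5e-07) into severe and -1.94 (SE 0.12, FDR = 3.5e-06) into mild deficit. PYL2 (GRMZM2G134731) fell by 0.56 (FDR = 0.00064) and 0.50 (FDR = 0.0069) on the log2 scale at the same steps. SnRK2 kinase genes held no member, and 3 of 7 were raised and 1 lowered in severe against mild roots (backgrounds 25.8% and 23.3% of genes). In mild against well-watered roots 0 were raised and 2 lowered (backgrounds 4.45% and 4.11% of genes).

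Desiccation-associated proteins gave 3 members, asr1, dbf1 and COR413-TM1, among 25 listed transcripts of which 9 were raised and 1 lowered in severe against mild roots (backgrounds 13.8% and 10.4%) and 3 were raised in mild against well-watered roots (background 1.38%). The median log2 change was 0.29 for severe against mild and 0.09 for mild against well-watered. The DRE-binding factor dbf1 (GRMZM2G061487_T01), a regulator of dehydration genes, had means of 13.0 CPM in well-watered, 22.0 CPM in mild and 76.9 CPM in severe roots. COR413-TM1 (GRMZM2G102605_T01), of a family of membrane proteins named for cold regulation, had means of 4.05, 6.89 and 11.2 CPM in the same order. The dehydrin gene dhn2 (GRMZM2G373522), looked up after the values had been seen, was no member, since its means rose by less than 1.5 times at each step. Its gene sums were 1674 ± 9.44 CPM in severe, 1298 ± 70.2 CPM in mild and 908 ± 29.7 CPM in well-watered roots (SD, n = 3 each). No heat shock protein was a member, and 8 of 22 such transcripts were raised and 3 lowered in severe against mild roots (backgrounds 13.8% and 10.4%) and 2 raised in mild against well-watered roots (background 1.38%).

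Cell wall genes gave 6 members. The alpha-expansin gene expa1 (GRMZM2G339122_T01), whose product loosens walls, had means of 48.0 ± 3.65 CPM in well-watered, 77.9 ± 13.2 CPM in mild and 279 ± 30.4 CPM in severe roots (SD, n = 3 each). The laccase gene lac5 (GRMZM2G367668_T01), of the enzyme family that couples lignin precursors, had 0.738, 2.31 and 20.9 CPM in the same order. The chitinase genes chiA and chiI belonged here too, and chiI (GRMZM2G145461_T01) had means of 1.33, 5.02 and 19.4 CPM in that order. Of the 101 cell wall transcripts, 45 were raised and 7 lowered in severe against mild roots (backgrounds 13.8% and 10.4%), and 7 were raised and 1 lowered in mild against well-watered roots (backgrounds 1.38% and 1.06%). Median log2 changes were 0.47 (severe against mild) and 0.07 (mild against well-watered). Expansin genes as a family, grouped after the values had been seen, were raised in 10 of 12 cases and lowered in 1 for severe against mild roots (backgrounds 25.8% and 23.3% of genes). In mild against well-watered roots 3 were raised and 1 lowered (backgrounds 4.45% and 4.11% of genes).

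Benzoxazinoid genes gave 2 members. BX4 (GRMZM2G172491_T01) and BX5 (GRMZM2G063756_T01), cytochrome P450 genes that act one after the other in the synthesis of benzoxazinoid defence compounds, were neighbours on chromosome 4 (3051215 to 3054036 and 3112925 to 3115501). BX4 had means of 2.95 ± 0.414 CPM in well-watered, 6.05 ± 1.53 CPM in mild and 39.2 ± 14.8 CPM in severe roots (SD, n = 3 each). BX5 had means of 6.92 ± 1.53, 11.6 ± 2.49 and 39.9 ± 13.9 CPM in the same order (SD, n = 3 each). Severe libraries 1, 2 and 5 had 30.8, 56.3 and 30.5 CPM for BX4 and 31.7, 56.0 and 32.0 CPM for BX5, with library 2 the highest for both. Of the 13 benzoxazinoid transcripts 8 were raised in severe against mild roots (background 13.8%), and 1 was raised and 1 lowered in mild against well-watered roots (backgrounds 1.38% and 1.06%). The list's median log2 change was 0.92 into severe and 0.85 into mild deficit.

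The glutathione transferases GST25 (GRMZM2G161905_T01), gst42 (GRMZM2G025190_T01) and gst23 (GRMZM2G416632_T02), which join glutathione to reactive compounds, were the members of the redox list. GST25 had means of 20.6, 32.7 and 52.2 CPM in well-watered, mild and severe roots, with 2 nearly equal steps of 1.58 and 1.6. For gst23 the mild step of 2.85 exceeded the severe step of 2.01. In the list of 124 redox and conjugation transcripts, 31 were raised and 7 lowered in severe against mild roots (backgrounds 13.8% and 10.4%), and 12 were raised and 2 lowered in mild against well-watered roots (backgrounds 1.38% and 1.06%). At the median, transcripts of the list changed by 0.15 (severe against mild) and 0.11 (mild against well-watered) on the log2 scale. The cystatin gene cpi2 (GRMZM2G012160_T01), an inhibitor of cysteine proteases, had 23.2, 26.2 and 27.0 CPM in well-watered roots, 45.4, 53.0 and 47.9 CPM in mild roots and 54.6, 145 and 75.9 CPM in severe roots. One severe library thus lay barely above the mild ones and another at almost 3 times their level. Of 25 transcripts of protease inhibitors and proteases, 12 were raised in severe against mild roots (background 13.8%), with median log2 changes of 0.51 (severe against mild) and 0.16 (mild against well-watered).

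Among carriers, the sugar transporter gene sfp4 (GRMZM2G154211_T01) had means of 18.5 ± 2.21 CPM in well-watered, 35.0 ± 1.73 CPM in mild and 154 ± 5.86 CPM in severe roots (SD, n = 3 each), with little spread in severe roots. Lsi1 (NIP2-1, GRMZM2G028325_T02), a channel of the aquaporin family that carries silicon, had 1.06 ± 0.167, 4.81 ± 0.996 and 56.4 ± 12 CPM in the same order (SD, n = 3 each), a total ratio of 53.5. Its close relative NIP2-2 (GRMZM2G137108), looked up afterwards, averaged 49.0 ± 12.1 CPM in severe, 83.6 ± 7.91 CPM in mild and 103 ± 11 CPM in well-watered roots (SD, n = 3 each), and was lowered in severe against mild roots (log2 fold change -0.86, SE 0.16, FDR = 0.00083). The potassium transporter gene HAK24 (GRMZM2G120163_T01) had means of 3.10, 4.66 and 11.5 CPM in well-watered, mild and severe roots. In the list of 102 transporters and aquaporins, 34 transcripts were raised and 6 lowered in severe against mild roots (backgrounds 13.8% and 10.4%), and 4 were raised and 6 lowered in mild against well-watered roots (backgrounds 1.38% and 1.06%). The median log2 change was 0.26 for severe against mild and -0.02 for mild against well-watered.

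Transcription factors gave 12 members, from 10 genes, among 634 listed transcripts. MYB165 (GRMZM2G089686_T01) had means of 5.36 ± 0.579 CPM in well-watered, 16.4 ± 1.45 CPM in mild and 53.2 ± 7.15 CPM in severe roots (SD, n = 3 each), with steps of 3.05 and 3.25. One gene named NAC1 (GRMZM2G336533) had 2 member transcripts, at 0.675, 3.12 and 29.2 CPM and at 1.13, 4.61 and 25.4 CPM in the same order. A different gene also named NAC1 (GRMZM2G014653) had 2 as well, with shallow total ratios of 2.68 and 2.81. Among all listed transcription factor transcripts, 135 were raised and 21 lowered in severe against mild roots (backgrounds 13.8% and 10.4%), and 11 were raised and 8 lowered in mild against well-watered roots (backgrounds 1.38% and 1.06%). Median log2 changes were 0.23 (severe against mild) and 0.00 (mild against well-watered).

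Of 194 listed transcripts that the study's degradome sequencing, which reads the ends of cleaved messages, had assigned to a miRNA, 1 was a member. Among all 46599 listed transcripts 300 were members, so nothing is read from this count. The 1 member was NAC40 (GRMZM5G898290_T02), assigned to a miR164 family miRNA. It had 1.23, 2.56 and 2.2 CPM in well-watered roots, 6.16, 5.90 and 4.70 CPM in mild roots and 14.2, 28.5 and 17.1 CPM in severe roots. Groups did not overlap at either step, by the rule. For MYB165 the assigned transcript was GRMZM2G089686_T02, which was no member and stayed at means of 0.312 CPM in well-watered, 0.686 CPM in mild and 2.41 CPM in severe roots. In all, 50 of the 300 members fell in any of the lists and 250 in none, mostly because their genes carried no name.

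Several genes contributed more than one transcript. At least 2 member transcripts came from 22 genes and at least 3 from 6 genes: AGA1, gln2, nuc, GRMZM2G063909, GRMZM2G123896 and GRMZM2G154007. Their transcripts share most of their sequence, and reads that matched several were divided among them by the authors' counting. Fewer than 10% of the assigned reads were unique in 88 of the 300 members, whereas every read was unique in 157. Among all 46599 listed transcripts, the counts were 21559 and 15652. The gene had a single annotated transcript for 157 members and for 15583 of all listed transcripts. Full uniqueness thus largely went with a single annotated transcript, and it does not show whether reads of related genes were kept apart. With all transcripts of a gene summed, 254 of the 272 genes met the steps. Genes with a single listed transcript meet them by definition, and every gene that missed them had at least 2 listed transcripts. The sum for GRMZM2G154007 was 59.8 CPM in well-watered, 134 CPM in mild and 415 CPM in severe roots. GRMZM2G123896 reached 5.88, 12.6 and 152 CPM in the same order, GRMZM2G063909 14.2, 25.9 and 69.5 CPM, and nuc 6.75, 14.3 and 64.0 CPM. The member genes had 193 other listed transcripts, of which 172 had a higher mean in severe than in well-watered roots. A higher severe mean alone is common, since the median ratio of severe to well-watered was 1.08 across all listed transcripts. Of the 193, 10 met the steps themselves without reaching the 300.

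Transcript structure and position were not used by the rule and are given as descriptions without a test. Single-exon transcripts made up 20.3% of members, against 15.3% of all listed transcripts and 10.4% of those with a severe mean at least as high as the lowest member. The gene had a single annotated transcript for 52.3% of members, against 33.4% of all listed and 39.0% of equally abundant ones. Of the 201 transcripts that met the steps but ranked lower, 23.4% had a single exon and 54.2% a single annotated transcript. In 148 transcripts that fell stepwise these shares were 41.2% and 62.8%. In 804 transcripts raised under severe deficit only they were 18.3% and 45.6%. High shares were thus not particular to the members. Whether the rule itself favours such transcripts was not tested. The median member was 1681 bases long, against 1580 bases for all listed and 1839 bases for equally abundant transcripts. Member genes made up between 0.685% of the listed genes of chromosome 5 and 1.41% of those of chromosome 9.

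A few members lay side by side. Beside BX4 and BX5, directly adjacent member genes were GRMZM2G039278 and GRMZM2G069722 on chromosome 1, GRMZM2G050412 and GRMZM2G163406 on chromosome 6, and GRMZM2G085812 and GRMZM2G119067 on chromosome 9. On chromosome 3, phytase1, GRMZM2G020423 and phytase2 lay within 453449 bases, noticed after the values had been seen, and 3 of the 6 listed genes in that stretch were members. Another 14 member genes, among them AGA1, gln2 and gst23, overlapped a gene model on the opposite strand. Without a stated strand in the counting, their reads cannot be told apart from those of the neighbour.

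Transcripts just inside and just outside the limits lay close together. At the cut on the severe mean, GRMZM2G460078_T01 (10.532 CPM) was kept and GRMZM2G366873_T01 (10.5319 CPM) was not. At the mild step, GRMZM2G416388_T04 (1.50027) was inside and GRMZM2G542272_T01 (1.49983) outside. At the severe step the nearest were GRMZM2G133407_T01 (1.511) inside and GRMZM2G051683_T01 (1.49974) outside. At the well-watered minimum, gln2 transcript GRMZM2G024104_T02 (0.530 CPM) was inside and GRMZM2G173597_T02 (0.479 CPM) outside.

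The members' severe replicates were spread widely. Their median coefficient of variation was 20.9% in severe, 11.7% in mild and 15.2% in well-watered roots, against 8.38% in severe, 6.67% in mild and 5.55% in well-watered roots for the 14533 listed transcripts with as high a severe mean. Severe library 2 was the highest of its treatment in 233 of the 300 members, against 39.9% of those 14533 transcripts, and severe library 1 the lowest in 217. At the median, a member stood at 0.83 of its severe mean in library 1, 1.19 in library 2 and 0.97 in library 5. Severe library 2 exceeded both other severe libraries by more than 1.5 times in 71 of the 300 members, against 461 of those 14533 transcripts. After TMM scaling it was still the highest in 223. Without it the median severe step was 3.04.

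Summed markers of dividing cells, root hairs and xylem differed between severe and mild libraries, whereas mild and well-watered libraries lay close together. Transcripts of dividing cells (37 transcripts, summed) had 2079 to 2405 CPM in severe, 2853 to 3008 CPM in mild and 2839 to 3024 CPM in well-watered libraries, with severe library 2 the lowest, and 22 of the 37 were lowered in severe against mild roots (background 10.4%). The sum of 11 transcripts of secondary wall synthesis in xylem was 289 to 402 CPM in severe, 199.8 to 225 CPM in mild and 192 to 203 CPM in well-watered libraries, with severe library 2 the highest, and 4 of the 11 were raised in severe against mild roots (background 13.8%). The median log2 change of these 11 was -0.14 for severe against mild, so that the sum and the typical transcript differed in direction. The 2 root hair transcripts summed to 42.4 to 46.6 CPM in severe, 58.4 to 62.1 CPM in mild and 56.2 to 58.9 CPM in well-watered libraries. The leaf photosynthesis sum was at most 8.01 CPM, and the shoot meristem gene kn1 at most 0.423 CPM in any library. None of these listed markers was a member. The laccase genes lac4 (GRMZM2G164467) and lac5 and the gene bk2 (GRMZM2G109326), each with a member transcript, were not in the marker lists. Laccases had been planned as xylem markers, so the absence of members among the markers depends on leaving them out. The part of the marked cell types in the members' levels was not tested.

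**Figure D5:**
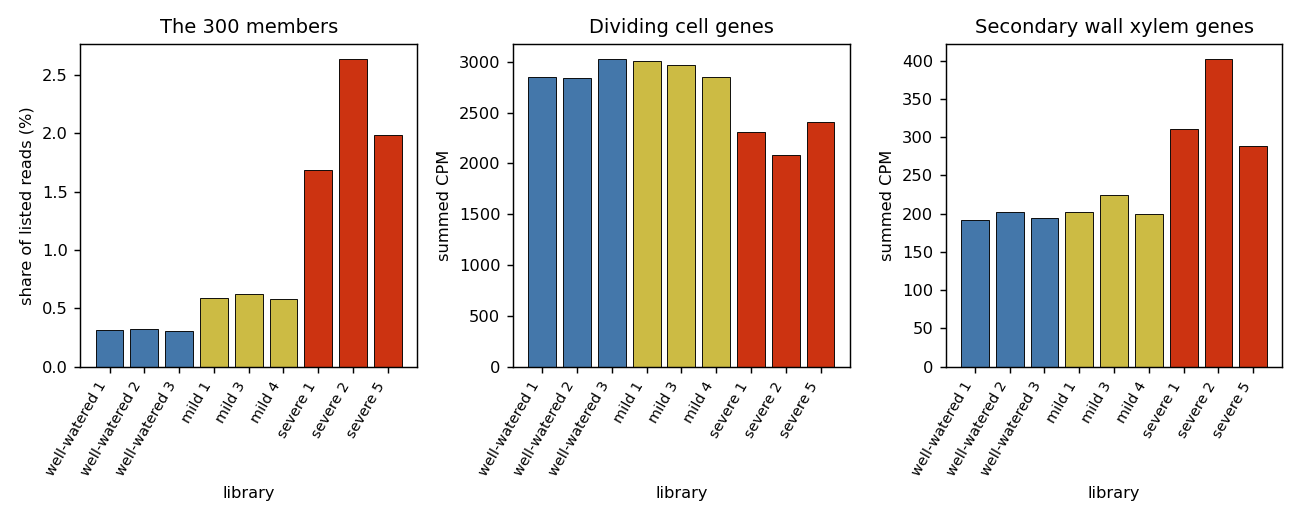
Values of each of the 9 libraries: the share of listed reads held by the 300 members (left, percent), the summed CPM of dividing cell genes (middle) and of secondary wall xylem genes (right), all axes starting at 0. Severe library 2 has the highest share of members (2.63%), the lowest dividing cell sum (2079 CPM) and the highest xylem sum (402 CPM).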

How the data were processed

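RNA from 9 libraries, 3 per water treatment, was sequenced by the authors. Reads of at least 36 nt were mapped by them with CLC Workbench 6.8.1 to the gene models of B73 RefGen_v3, and the strand setting was not given in the sources used here. The authors deposited counts (total and unique reads, not normalized) and RPKM for 63074 transcripts. They also deposited CPM for 46599 transcripts, which equal the total reads over their sum in a library, with no TMM factor. Groups were taken from the sample labels, which give -0.3 MPa for the mild treatment.

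Members were found on the deposited CPM. All 9 libraries were fitted together on the total counts of the 46599 transcripts with edgeR 4.0.16 in R 4.3.3 (TMM factors, treatment as the only term, quasi-likelihood F-test, Benjamini-Hochberg FDR below 0.05), and again on reads summed over 26994 genes. The fit was tested on simulated data. Log2 fold changes come from this fit, and ratios and SDs from CPM. Gene names came from RefSeq symbols for the NAM-5.0 assembly, which matched 208 of the 272 member genes, and lists were matched by symbol. Named transcripts were the 12 with the highest severe mean, the 10 with the largest total ratio, the largest step of each kind, up to 3 per list, the nearest to each limit, degradome targets, genes with 3 or more member transcripts and neighbouring member genes. Members and lists were chosen with earlier results of these data known, and the related genes after their values were seen.

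Alternatives were unique reads, TMM-scaled CPM, DESeq2 1.42.0, other limits and filters, a replicate block, gene sums and leaving out each library. Intervals and floors cover counting error only.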

Additional observations from a re-analysis of the deposited data

How the results depend on the processing

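The rule gave 501 transcripts, 1053 without a well-watered minimum, 1006 with the looser step limit and 154 with steps of 2, where 117 of the 300 members remained. Other settings (unique reads, TMM-scaled CPM, DESeq2 size factors, a minimum of 1 CPM) gave 379 to 450. The members that met the steps numbered 207 of 300 with unique reads, 271 with either scaling and 274 with that minimum. Leaving out single libraries gave 502 to 603, and 270 to 299 members then met the steps. In mild against well-watered roots 158 members were called raised, 76 at an FDR below 0.01, 241 by DESeq2 and 95 to 194 with single libraries left out (95 without well-watered library 3, 96 without mild library 3). The cause of these differences was not tested. In severe against mild roots 295 members were called, and 278 to 294 with single libraries left out. In severe against well-watered roots 300 were called whichever single library was left out. With unique reads the counts were 199 for mild against well-watered, 264 for severe against mild and 280 for severe against well-watered roots. With a replicate block the counts were 46, 158 and 300 for the 3 contrasts in that order. Deviations of 5 same-numbered pairs of libraries correlated at -0.0115 to 0.0350, and those of 22 other pairs at -0.0646 to 0.0420. No pairing by replicate number was seen, but so few pairs cannot exclude one. For single members named in the text no direction reversed. Transcripts without unique reads gave no value for unique reads. Promoter alternatives were not run, as no promoter sequence was used here.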

Other observations

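A further 552 transcripts met both steps but started below 0.5 CPM in well-watered roots, and 37 of them reached a severe mean as high as that of the members. They were looked at after the values had been seen and carry no test. The transcript of GLP2 (GRMZM2G122018_T01), of the germin-like proteins of the cell wall, had means of 0.0154 CPM in well-watered, 1.37 CPM in mild and 81.5 CPM in severe roots. CCR (GRMZM2G131205_T01), named for cinnamoyl-CoA reductase of lignin synthesis, had means of 0.247, 2.56 and 64.6 CPM in the same order. BX3 (GRMZM2G167549_T05), which acts just before BX4 in benzoxazinoid synthesis, had means of 0.145, 1.05 and 19.9 CPM in that order. A ratio over well-watered levels this close to the 3-read floor is not given.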
